A study of Rattus norvegicus with 6 samples.

Results

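The cycling enterocyte nuclei were the nuclei of the 3 enterocyte count tables that held 2 or more UMIs (unique molecular identifiers, counts of distinct RNA molecules) summed over 10 proliferation genes: Mki67, Top2a, Kif11, Foxm1, Cenpe, Cenpf, Aspm, Kif15, Ect2 and Diaph3. They were 184 of 8782 enterocyte nuclei, or 2.10% (exact Clopper-Pearson 95% interval 1.81% to 2.42%), in a series of 9800 nuclei that also holds 1018 nuclei in T cell tables. The nuclei were chosen by these measured UMIs, so the levels of the 10 genes in cycling against other nuclei are a description, with no test. Shares and levels are tested only between treatments, which the rule did not use. The nuclei came from flash-frozen colon of wildtype male Wistar rats. In the sham group the drinking water held nothing added. Both other groups had 3 days of 5% dextran sulfate sodium (DSS) in the water, a polymer toxic to the epithelium of the colon, followed by 4 days of capsules given by oral gavage 2 times a day, 6 hours apart. The capsules held no drug in the placebo group and 50 µg of PL8177, a peptide agonist of the melanocortin 1 receptor, in the PL8177 group. Colon was taken after DSS had been withdrawn and replaced by plain water. The paper reports ulcers and inflammation in the colon of rats given DSS and capsules without drug. Each treatment is 1 deposited table per cell type, and the start of each nucleus name gave 3 library tags per treatment. A tag was read as 1 rat, but the sample labels do not list rats, so p-values measure the spread between tags.

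Total counts per tag ran from 319125 to 4123319 UMIs over 304 to 1531 enterocyte nuclei, and the median per nucleus ran from 437 to 2331 UMIs. Tags shared 8 barcodes over 36 pairs of tags, and no barcode was in both a T cell and an enterocyte table. A doublet caller (Scrublet) marked 3 of the 184 cycling nuclei among 84 of 9800 nuclei. The nucleus with the most UMIs in the data, 86021 against 28085 for the next, was a cycling nucleus of PL8177 tag GR43 with 28 UMIs of the 10 genes. It held 11.8% of all UMIs of cycling nuclei, and GR43 as a whole held 42.6%. The main results that rest on either are given without them, but levels by class of rule UMIs are not given without GR43.

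The colon epithelium is renewed from stem cells at the crypt base. Their daughters divide several times in the lower crypt, leave the cell cycle and mature into absorptive colonocytes as they move to the surface. Genes for DNA copying are switched on by E2F factors before and during S phase. Genes for mitosis are held down in resting cells and switched on late in the cycle through the CHR element (cell cycle genes homology region), which the MuvB complex binds with B-Myb and FoxM1, and through CCAAT boxes, which NF-Y binds. Among the 10 genes, Mki67 encodes the Ki-67 protein that coats mitotic chromosomes and Top2a the topoisomerase that untangles copied DNA. Kif11 and Kif15 are kinesins of the spindle, Cenpe and Cenpf act at the kinetochore, Aspm at spindle poles, and Ect2 and Diaph3 in the actin ring that splits the cell. Foxm1 is the transcription factor of the late cell cycle.

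The promoters of the 4 genes with the most UMIs in cycling nuclei are shown because they carry the elements through which mitotic genes are switched on together. The sequences are from RefSeq (build GRCr8), run 250 bases before to 50 bases after the gene start and read along the gene, which lies on the minus strand in all 4: Cenpf at chr13:103760837-103761136, Mki67 at chr1:199952544-199952843, Top2a at chr10:84473044-84473343 and Ect2 at chr2:111966577-111966876. Capitals mark TTTGAA (the core of the CHR) and CCAAT on either strand, so TTCAAA and ATTGG are marked too.
Cenpf: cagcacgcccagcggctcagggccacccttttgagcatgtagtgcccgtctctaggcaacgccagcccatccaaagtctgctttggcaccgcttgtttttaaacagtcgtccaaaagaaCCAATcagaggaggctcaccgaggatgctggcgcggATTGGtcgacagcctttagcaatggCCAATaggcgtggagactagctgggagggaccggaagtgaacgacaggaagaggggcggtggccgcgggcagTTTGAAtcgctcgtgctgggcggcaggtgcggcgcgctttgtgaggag
Mki67: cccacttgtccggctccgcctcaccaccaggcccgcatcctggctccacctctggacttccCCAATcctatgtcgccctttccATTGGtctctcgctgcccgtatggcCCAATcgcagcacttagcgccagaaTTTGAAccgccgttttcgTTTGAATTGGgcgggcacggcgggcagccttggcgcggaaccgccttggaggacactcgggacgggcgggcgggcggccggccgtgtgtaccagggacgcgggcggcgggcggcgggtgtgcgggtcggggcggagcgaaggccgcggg
Top2a: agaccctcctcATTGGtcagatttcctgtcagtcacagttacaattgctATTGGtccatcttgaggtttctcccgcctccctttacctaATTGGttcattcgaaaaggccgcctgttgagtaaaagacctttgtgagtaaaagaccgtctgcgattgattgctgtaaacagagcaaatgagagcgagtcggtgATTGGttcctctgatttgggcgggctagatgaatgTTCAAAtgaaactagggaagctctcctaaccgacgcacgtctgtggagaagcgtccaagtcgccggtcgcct
Ect2: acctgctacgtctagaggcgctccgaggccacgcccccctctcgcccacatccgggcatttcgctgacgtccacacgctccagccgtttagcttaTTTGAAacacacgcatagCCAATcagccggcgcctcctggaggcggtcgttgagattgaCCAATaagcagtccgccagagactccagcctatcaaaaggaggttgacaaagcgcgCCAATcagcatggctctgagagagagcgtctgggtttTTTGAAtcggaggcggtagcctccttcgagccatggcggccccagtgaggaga
Of the 9 of 10 genes with an entry (all but Foxm1), 6 held TTTGAA, against 18.3% of all 33469 promoters, and 8 held CCAAT, against 37.5%. In Mki67 a TTTGAA and a reversed CCAAT overlap. The E2F letters TTTCCCGC and TTTGGCGC were in 0 of the 9, against 0.974% and 0.493% of all promoters. A match describes letters in this window and is no evidence of binding.

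Of these letters, TTTGAA and TTTCCCGC split the other cell cycle lists. TTTGAA was in 19 of 29 promoters of mitotic kinases and cyclins (65.5%), 21 of 35 of spindle genes (60.0%) and 17 of 30 of centromere and chromosome genes (56.7%). It was in 6 of 46 promoters of DNA replication genes (13.0%) and 3 of 19 of S phase repair genes (15.8%). TTTCCCGC was in 10 of 46 replication promoters (21.7%), 3 of 19 repair promoters (15.8%) and in 0 of 29, 0 of 35 and 0 of 30 promoters of the other 3 lists. CCAAT was closer between the lists, in 54.3% of replication and 47.4% of repair promoters and in 62.1%, 68.6% and 56.7% of the other 3. TTTGGCGC was in 21.7% of replication promoters, but in 5.26% of repair promoters beside 3.45%, 5.71% and 0% of the other 3. Of the genes called higher in cycling nuclei by the fit across all genes below, 44 had a promoter entry and 8 of these held TTTGAA (18.2%). Of the genes called lower, 26 had an entry and 5 held TTTGAA (19.2%), so the share was alike in both directions. It was 10.5% in the 3569 tested genes with an entry.

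In the cycling nuclei Cenpf was seen in 77 of 184 nuclei (41.8%), Mki67 in 74 (40.2%), Ect2 in 51 (27.7%), Top2a and Cenpe each in 47 (25.5%), Diaph3 in 44 (23.9%), Kif11 and Kif15 each in 31 (16.8%), Aspm in 24 (13.0%) and Foxm1 in 8 (4.35%). No gene of the rule was in a majority of the nuclei. Of the 184, 53 had UMIs of a single rule gene, 71 of 2 genes and the others of 3 to 9. The cycling nuclei held 691 of the 1425 rule UMIs in all enterocyte nuclei, and the rest lay 1 to a nucleus in 734 nuclei outside the rule. The most UMIs of a gene in a nucleus were 9 for Mki67 and 7 each for Cenpe and Cenpf, while Kif15 never passed 1.

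At the threshold, 99 of the 184 nuclei (53.8%) held exactly 2 rule UMIs, with a median of 1601 UMIs in all, and the 734 just outside held exactly 1, with a median of 1626.5. The 85 nuclei with 3 or more included 42 with 5 or more. Cycling nuclei as a whole were deeper, with a median of 2576.5 UMIs and 1590.5 genes against 1069 UMIs and 763.5 genes in the other 8598 nuclei. The share that met the rule moved with depth. It was 1.10% (0.690% to 1.66%) in nuclei with fewer than 500 UMIs, 1.73% (1.19% to 2.42%) from 1000 to under 2000 and 5.50% (4.22% to 7.04%) from 4000 on. The level of the 10 genes moved the other way, from 2.21 rule UMIs per 10000 UMIs in nuclei with fewer than 500 UMIs to 0.614 per 10000 in nuclei with 4000 or more. The part of depth in the shares was not tested beyond the thinned values below.

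**Figure D1:**
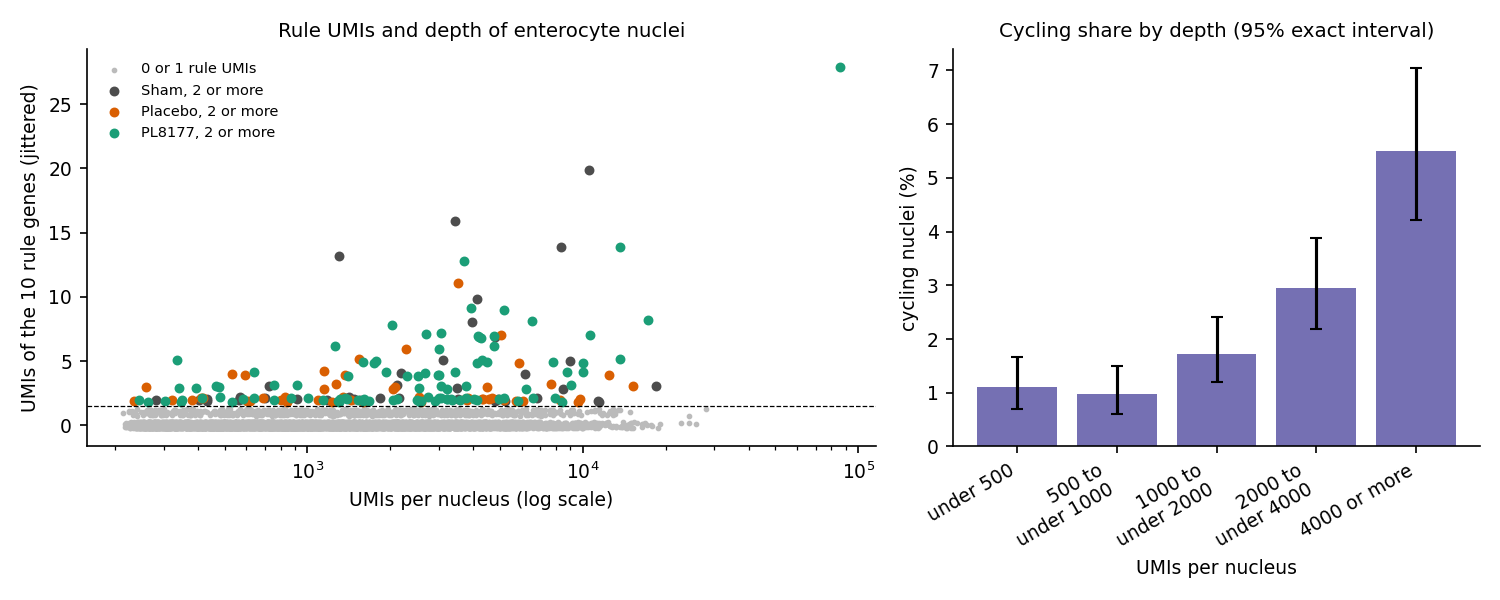
Left, UMIs of the 10 rule genes (jittered, vertical axis) against all UMIs of the nucleus (log scale) for 8782 enterocyte nuclei, with cycling nuclei coloured by treatment and the dashed line at the threshold. Right, the percent of nuclei that met the rule by depth with exact 95% intervals, which is 1.10% in the shallowest and 5.50% in the deepest nuclei.

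Genes that the rule did not use gave the check of the label. A set of 5 lists holds genes of DNA replication, S phase repair, mitotic kinases and cyclins, the spindle, and the centromere. Their summed levels in cycling nuclei were 9.32, 4.64, 5.72, 10.9 and 10.3 UMIs per 10000 UMIs, against 3.71, 1.22, 2.31, 3.43 and 3.52 in the other nuclei. The ratios were 2.51 for replication, 3.81 for repair, 2.48 for kinases and cyclins, 3.19 for the spindle and 2.92 for the centromere. Of the genes with UMIs, 53 of 54, 24 of 24, 32 of 33, 37 of 37 and 33 of 36 were at a higher pooled level in cycling nuclei. Without tag GR43 the 5 ratios were 1.91, 3.22, 2.17, 2.61 and 2.32, and without the nucleus with the most UMIs they were 2.48, 3.79, 2.54, 3.22 and 2.99. Among nuclei with at least 1000 UMIs they were 2.88, 4.36, 2.54, 3.40 and 3.22.

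The levels of these lists followed the number of rule UMIs. Spindle genes stood at 3.39 per 10000 UMIs in nuclei with 0 rule UMIs and 3.71 with 1, then at 6.08 with 2, 9.71 with 3 to 4 and 16.0 with 5 or more. Replication genes stood at 3.71, 3.72, 4.62, 9.22 and 13.6 over the same classes. Nuclei with exactly 2 rule UMIs were nearer to the nuclei outside the rule than to those with 5 or more in both lists. Between 0 and 1 rule UMIs the other lists moved little, from 1.21 to 1.26 for repair, 2.28 to 2.51 for kinases and cyclins and 3.51 to 3.66 for the centromere. Median depth differed over the classes too, at 1030, 1626.5, 1601, 2294 and 4175 UMIs. Without the nucleus with the most UMIs the class of 5 or more held 41 nuclei, with 18.4 per 10000 for the spindle and 15.0 for replication. GR43 held 23 of the 42 nuclei with 5 or more, so tags were mixed differently over the classes. The levels by class were not taken without GR43, and the part of that tag in them was not tested.

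**Figure D2:**
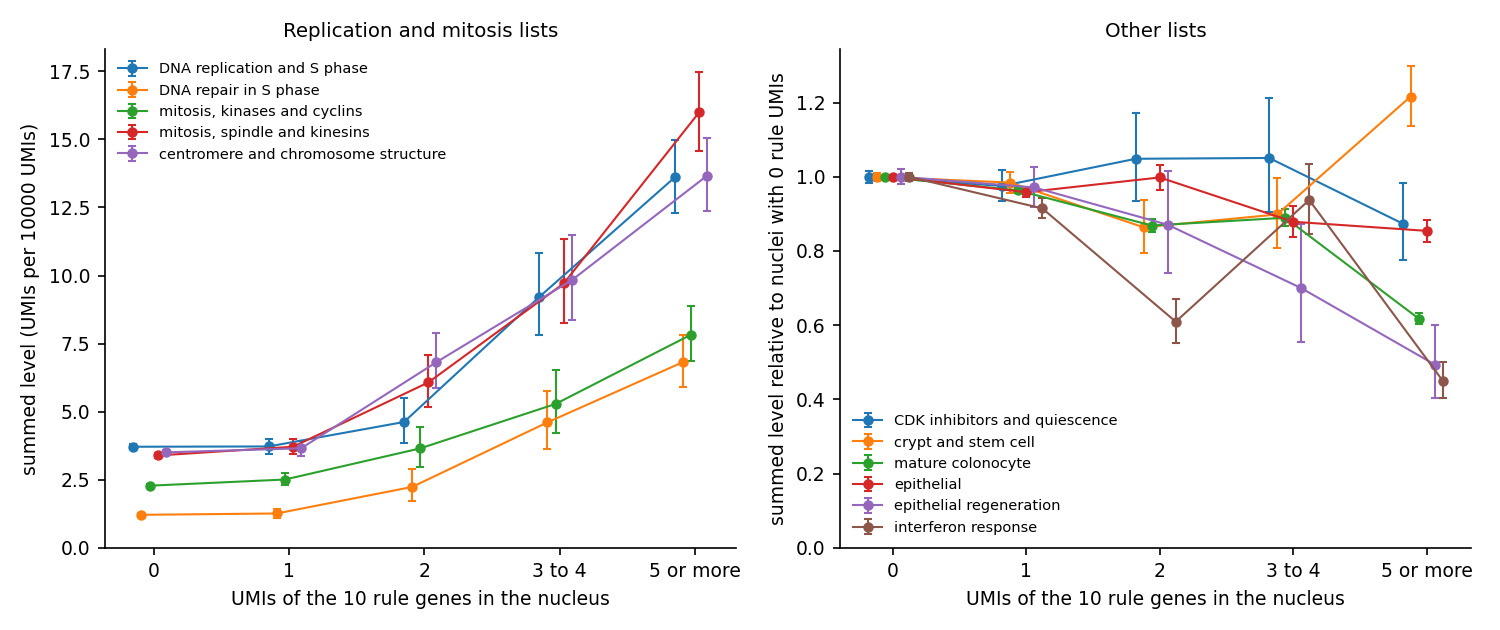
Summed level of gene lists that the rule did not use, by the number of rule UMIs in the nucleus (7864, 734, 99, 43 and 42 nuclei), with Poisson 95% intervals that cover counting error only. Left, replication and mitosis lists in UMIs per 10000 UMIs, which are higher from 2 rule UMIs on, and right, other lists relative to nuclei with 0 rule UMIs, where mature colonocyte, regeneration and interferon lists are lowest at 5 or more. Tag GR43 held 23 of the 42 nuclei with 5 or more.

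UMIs of replication and of mitosis were seen in the same nuclei. In cycling nuclei, 137 of 184 (74.5%) held UMIs of both the replication or repair lists and the mitosis or centromere lists, 32 of mitosis or centromere alone, 8 of replication or repair alone and 7 of neither. Among the 42 nuclei with 5 or more rule UMIs, 40 held both. At 1000 UMIs or more, both were in 114 of 141 cycling nuclei (80.9%) and in 2459 of 4502 other nuclei (54.6%), whose median depths were 3497 and 2319 UMIs. These lists at this depth did not separate nuclei in S phase from nuclei in mitosis.

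The nuclei carried the epithelial label. Genes of the epithelial list (such as Cdh1, Elf3 and Hnf4a) had UMIs in 183 of 184 cycling nuclei, as did genes of the mature colonocyte list, and the epithelial level was 116 per 10000 against 126 in other nuclei. Levels of other cell types were low in both: 0.933 against 0.384 per 10000 for the T cell list, 0.137 against 0.173 for B and plasma cells, 1.03 against 0.813 for myeloid cells, 0.412 against 0.477 for fibroblasts, 2.04 against 1.58 for smooth muscle, 0.233 against 0.289 for endothelium, 0.343 against 0.451 for enteroendocrine and 0.178 against 0.220 for tuft cells. In the cycling nuclei Cd3e, Cd3d, Cd3g, Cd247, Cd79b, Csf1r, Cd68, Cdh5 and Kdr were at 0 UMIs. At 0 were 8 of 13 T cell, 7 of 13 B and plasma cell, 9 of 13 myeloid and 3 of 7 endothelial members. None of the genes named as at 0 passed the fit with no filter, so these zeros do not set the cycling nuclei apart from the others. The T cell list nevertheless had UMIs in 44 cycling nuclei (23.9%) against 6.07% of the others, and 55 of its 68 UMIs were of Bcl11b, a transcription factor. The ratio for this list was 2.43, and 1.67 without GR43. In the fit with no filter Bcl11b rose (log2 fold change 1.22 ± 0.28 SE), as 1 of 12 T cell genes, where 1.68% of 16523 genes rose. It also rose there without the nucleus with the most UMIs, but 0 of 11 T cell genes passed without GR43. Of the 75 myeloid UMIs in cycling nuclei 48 lay in GR12, the tag on which sham mainly rests, at 3.23 against 1.05 per 10000 in its other nuclei, and 46 of these were of Mrc1. GR23 stood at 3.26 against 1.70 (6 UMIs) for the myeloid list and at 7.60 against 2.99 (14 UMIs) for smooth muscle. The part of these cells in the results of either tag was not tested. Goblet genes stood at 5.34 against 3.52 per 10000, a ratio of 1.52 that was 1.25 without the nucleus with the most UMIs and 1.08 without GR43. Of them Spdef, a factor of secretory cells, had 57 UMIs in cycling nuclei, 20 of them in that nucleus. In the edgeR fit with no filter, given below, Spdef rose (log2 fold change 1.83 ± 0.28 SE) and Zg16 fell (-1.94). These were 1 and 1 of 15 goblet genes, where 1.68% of 16523 genes rose and 2.36% fell. Spdef also rose in that fit without that nucleus, and without GR43, where 0.269% of genes rose.

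The share of cycling nuclei differed more between tags of a treatment than between treatments. In sham it was 3.23% in GR12 (30 of 929 nuclei), 0.726% in GR13 (6 of 827) and 0.141% in GR15 (1 of 708). In placebo it was 2.38% in GR22 (32 of 1347), 1.97% in GR23 (6 of 304) and 0.917% in GR24 (12 of 1308). In PL8177 it was 3.44% in GR41 (35 of 1016), 3.59% in GR43 (55 of 1531) and 0.862% in GR44 (7 of 812). The groups overlapped, and the 4 tags with the highest median depth (GR12, GR22, GR43 and GR41) held 152 of the 184 nuclei (82.6%). Many of all enterocyte nuclei were theirs too, with 929, 1347, 1531 and 1016 of 8782. The mean share was 1.37% ± 1.64 in sham, 1.76% ± 0.753 in placebo and 2.63% ± 1.54 in PL8177 (SD, n=3 tags each). The difference was 0.878 percentage points for PL8177 against placebo (exact two-sided permutation test, p = 0.5), 1.27 for PL8177 against sham (p = 0.2, same exact test) and -0.390 for sham against placebo (p = 0.8, same exact test). With 3 tags against 3 the smallest p is 0.1, so no difference could pass. Over the 6 comparisons of shares and levels the adjusted p was 0.9 or 1 in each (Benjamini-Hochberg over the exact tests).

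Shares were also taken at the same depth. At 500 UMIs per nucleus, leaving out shallower nuclei, the expected share was 0.558%, 0.478% and 0.207% in the sham tags, 0.521%, 0.604% and 0.196% in the placebo tags, and 0.587%, 0.678% and 0.360% in the PL8177 tags, in the order above. From 189 nuclei in GR23 to 1303 in GR43 were kept. The means were 0.414% ± 0.184, 0.441% ± 0.216 and 0.542% ± 0.164 (SD, n=3), and PL8177 differed from placebo by 0.101 points. At 1000 UMIs the sham tags stood at 1.22%, 0% and 0%, the placebo tags at 0.806%, 1.42% and 0.426%, and the PL8177 tags at 1.07%, 1.78% and 0.818%, with only 66 nuclei kept in GR13, 110 in GR15 and 99 in GR23. The means were 0.408% ± 0.706, 0.883% ± 0.4997 and 1.22% ± 0.501 (SD, n=3), and PL8177 differed from placebo by 0.342 points. The order of the treatment means was the same at both depths, and the groups overlapped at both.

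**Figure D3:**
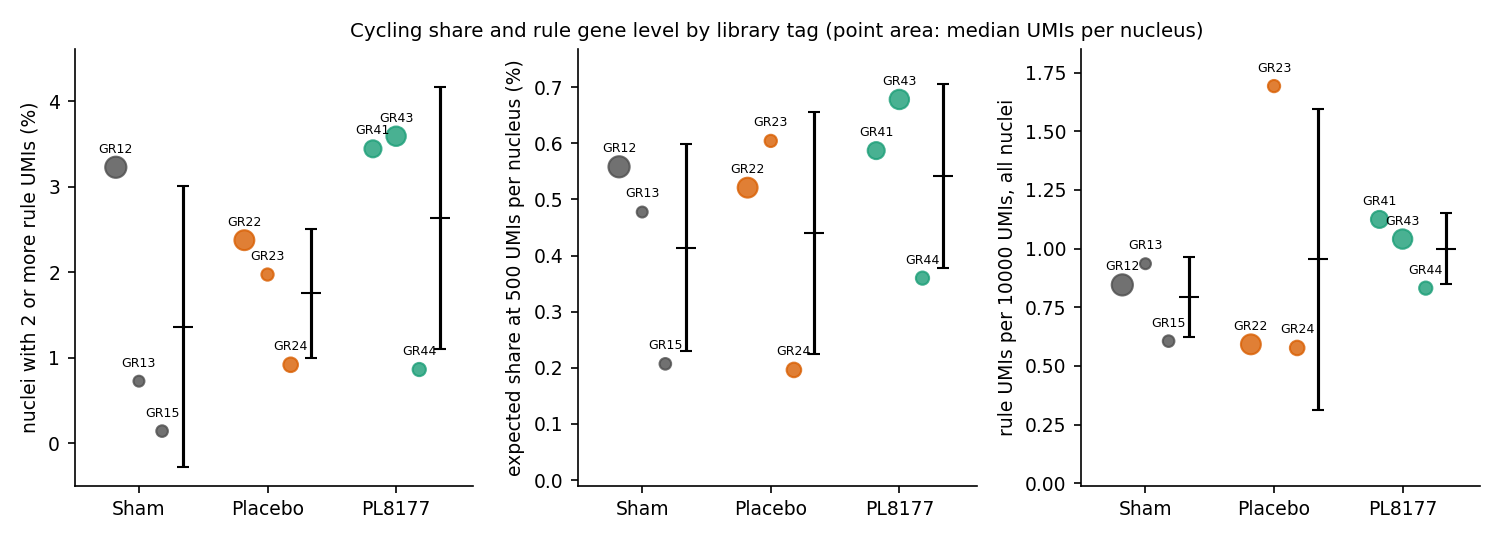
Percent of nuclei that met the rule (left), the share expected at 500 UMIs per nucleus (middle) and rule UMIs per 10000 UMIs over all enterocyte nuclei (right), 1 point per library tag with its name, with the mean and SD of 3 tags beside them in black. Point area grows with the median depth, and the groups overlap in every panel.

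Summed over all enterocyte nuclei of a tag, cycling or not, the 10 genes stood at 0.845, 0.935 and 0.606 UMIs per 10000 UMIs in the sham tags, at 0.592, 1.69 and 0.577 in the placebo tags and at 1.12, 1.04 and 0.831 in the PL8177 tags. GR23, the tag with the fewest nuclei, was the highest and the other placebo tags the lowest of all. The means were 0.795 ± 0.170 in sham, 0.954 ± 0.640 in placebo and 0.999 ± 0.151 in PL8177 (SD, n=3). PL8177 differed from sham by 0.203 (exact two-sided permutation test, p = 0.3) and from placebo by 0.0451 (p = 1, same exact test), and sham from placebo by -0.158 (p = 1, same exact test). Without GR23 the PL8177 level was 0.414 per 10000 above placebo and the sham level 0.211 above it, where it had been below. By gene, the pooled level of Top2a was 0.109 per 10000 in sham, 0.0546 in placebo and 0.156 in PL8177, and that of Kif11 was 0.0606, 0.0199 and 0.0883. Mki67 stood at 0.136, 0.0993 and 0.163, and Cenpf at 0.145, 0.134 and 0.180. Placebo was not the lowest for each gene: Foxm1 stood at 0.00727, 0.0232 and 0.0150 and Aspm at 0.0315, 0.0430 and 0.0569, while Kif15 was nearly level, at 0.0533, 0.0530 and 0.0599. The Top2a level of the placebo tag GR23, 0.188, was the highest of the 9 tags. These pooled values are of 1 table each and carry no test.

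Outside the rule, 54 genes rose and 41 fell in cycling nuclei against the other nuclei of the same tags (edgeR quasi-likelihood test on UMI sums per tag with the tag as a block, adjusted p below 0.05 and absolute log2 fold change above 0.5). These were 1.2% and 0.908% of the 4513 genes tested. The genes with the largest rises among those with at least 50 UMIs in cycling nuclei were Atm, the kinase that senses DNA breaks (log2 fold change 1.77 ± 0.27 SE, adjusted p = 2.01e-07, edgeR), Nop56 and Nop58, which modify ribosomal RNA in the nucleolus (1.56 and 1.28), Gtsf1 (1.38), the sodium, potassium and chloride cotransporter Slc12a2 of crypt cells (1.36), Fam174b (1.29), Ankrd26 (1.28), Chst9 (1.26), the cohesin regulator Pds5b (1.26) and the unnamed gene AABR07035916.1 (1.25). Atm was higher in cycling nuclei in all 7 tags whose cycling nuclei held over 10000 UMIs. It ran from 0.543 to 1.43 per 10000 there, against 0.188 to 0.389 in the other nuclei, and the ranges did not overlap. Nop56 was also higher in 7 of 7, from 0.875 to 2.15 against 0.270 to 0.998.

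The genes that fell most, among those with at least 500 UMIs in other nuclei, were Apoa1 (log2 fold change -1.82), which encodes apolipoprotein A-I, Tmem140 (-1.61), Cemip (-1.56), which takes part in the breakdown of hyaluronan, the interferon-induced Ifi27l2b (-1.51), AABR07025272.1 (-1.48), the lysosomal protease Ctsl (-1.37), the kinase Sgk2 (-1.34), AABR07032856.1 (-1.33), Lhfpl2 (-1.28) and Insig1 (-1.27), a brake on sterol synthesis. Apoa1 had 14 UMIs in the cycling nuclei. It was at 0 in the cycling nuclei of GR12, GR22, GR41 and GR44, but at 5.43 per 10000 in those of GR23, against 0.0998 in the other nuclei of that tag. Ifi27l2b was lower in cycling nuclei in 7 of 7 tags, by little in GR24 (1.94 against 1.96) and by most in GR44 (0 against 7.24).

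**Figure D4:**
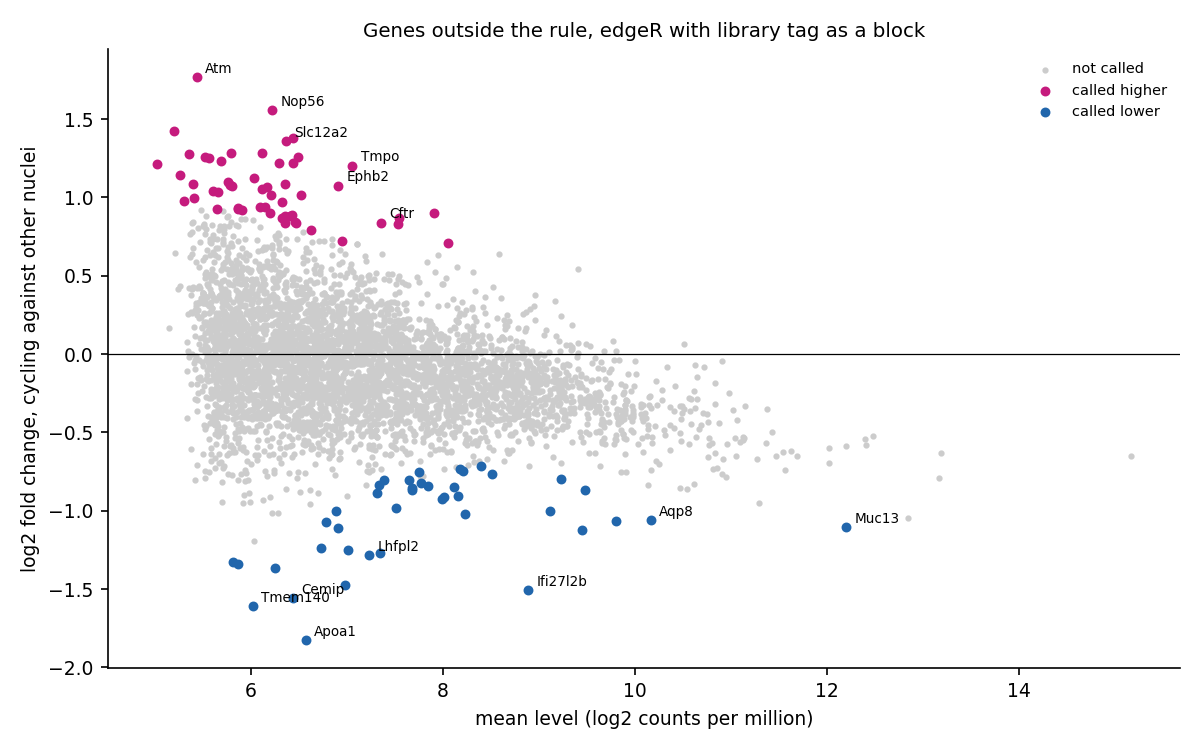
Log2 fold change of cycling against other nuclei (vertical axis) by mean level (log2 CPM) for 4513 genes outside the rule. Points in pink rose (54) and points in blue fell (41) by the edgeR test, and the genes of highest level lie mostly below 0.

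The count depended on a single tag and on scaling. Without GR43, 6 genes were called, 4 higher (AABR07005821.1, Gtsf1, Nop56 and Slc12a2) and 2 lower, Ifi27l2b and the interferon-induced Herc6, which was not called with all tags. These names were chosen after their values were seen. Of the 95 genes, 78 were tested without GR43 and all 78 kept their direction. Without scaling factors 122 genes were higher and 38 lower, and DESeq2 called 25 higher and 1 lower. The median log2 fold change of all genes was -0.10 in the reported fit, 0.04 without scaling factors and 0.11 by DESeq2. GR13 and GR15 entered with 6 and 1 cycling nuclei.

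The filter on low counts left few cell cycle genes in that fit. Of the 5 replication and mitosis lists, 10 genes were tested and 4 rose: Tmpo, a lamina protein of the nucleus (1.20), the chromosomal passenger Incenp (0.83), the chromatin protein Hmgb2 (0.84) and the spindle regulator Ckap5 (0.94). With no filter, 80 of the 184 genes of these lists with UMIs rose and 0 fell, where 1.68% of 16523 genes rose and 2.36% fell. The 80 were 13 of 54 for replication (with Mcm6, Rrm1 and Pola1), 12 of 24 for repair (with Brca1 and Brca2), 13 of 33 for kinases and cyclins (with Ccnb1, Plk1 and Bub1), 26 of 37 for the spindle (with Tpx2, Kif20b and Cit) and 16 of 36 for the centromere (with Cenpa and Ndc80). The median log2 fold change of the 184 was 1.80, beside -0.30 for all genes. Without scaling factors as well 102 of the 184 rose, where 621 of 16523 genes rose. Without GR43, 26 of 183 rose and 0 fell, where 0.269% of genes rose and 0.189% fell, with a median of 1.23. Replication had 1 of 54 and the spindle 10 of 37 without that tag.

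Among single genes, named after their values were seen, Bub1, a kinase of the spindle checkpoint, had 30 UMIs in cycling and 27 in other nuclei, or 0.412 against 0.0167 per 10000 (log2 fold change 3.91 ± 0.41 SE, adjusted p = 5.19e-17, edgeR with no filter). Tpx2, which activates Aurora A on the spindle, had 27 and 67 UMIs, at 0.371 against 0.0416 per 10000, and was higher in cycling nuclei in 7 of 7 tags (2.77 ± 0.36). The centrosome gene Cep128, which is in none of the lists, had 59 and 147 UMIs, at 0.810 against 0.0912 (2.68 ± 0.28). Of the genes with most UMIs in their lists, Pold3, a subunit of DNA polymerase delta, stood at 0.618 against 0.589 per 10000 (-0.07 ± 0.29), Cdc25a at 0.768 against 0.701 (-0.14 ± 0.27) and Numa1 at 1.22 against 1.01 (0.20 ± 0.23). None of these 3 passed the test, while Tmpo, Incenp, Hmgb2 and Ckap5, also among the members with the most UMIs, did.

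By tag, spindle genes stood at 8.61 per 10000 in the cycling nuclei of GR12 against 3.27 in its other nuclei, at 6.62 against 2.95 in GR22, at 8.23 against 3.57 in GR24, at 13.2 against 4.00 in GR41, at 13.4 against 3.28 in GR43 and at 15.7 against 3.53 in GR44. GR23 was the exception, with 3.80 (7 UMIs) against 4.86, and each other replication and mitosis list was lower in its cycling nuclei too. Replication stood at 4.88 against 5.95, repair at 1.63 against 2.29, kinases and cyclins at 1.09 against 2.66 and the centromere at 3.26 against 5.39. In this placebo tag, with 6 cycling nuclei, the lists thus did not bear out the label. The 3 PL8177 tags were above the sham tag GR12 and the placebo tags among these 7. This order was seen after the values were known and was not tested, and the GR44 value is of 22 UMIs. The other sham tags stood at 18.6 (GR13, 5 UMIs) and 13.8 (GR15, 1 UMI), not below the PL8177 tags as a group. With 2687 and 724 UMIs in cycling nuclei, GR13 and GR15 are too shallow to be read alone.

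Genes of mature colonocytes were lower in cycling nuclei. Their summed level was 312 per 10000 against 403 in the other nuclei. The ratio was 0.774, and it was 0.868 without GR43 and 0.783 without the nucleus with the most UMIs. Over the classes of rule UMIs, with all tags, the level stood at 405 at 0, 352 at 2 and 250.3 at 5 or more. In the fit 1 of 29 tested members had a value above 0 (4 without scaling factors and 5 by DESeq2), with a median of -0.49 beside -0.10 for all genes (-0.25 beside 0.04 without scaling factors), and 3 passed the test: the mucin Muc13 (-1.11 ± 0.33 SE, adjusted p = 0.0427, edgeR), the water channel Aqp8 (-1.06) and the transporter Abcg2 (-0.72). With no filter 13 of 33 fell, where 2.36% of 16523 genes fell. With neither filter nor scaling factors 4 of 33 fell, where 65 of 16523 genes fell. Without GR43 0 of 28 passed, where 2 of 3863 genes fell (edgeR with the filter). Slc26a3, the chloride and bicarbonate exchanger, stood at 65.6 against 86.8 per 10000 and Lypd8 at 53.6 against 77.8, and neither passed. Muc13 was lower in cycling nuclei in 6 of 7 tags, as in GR43 (24.3 against 51.4) and GR44 (14.3 against 43.0), and level in GR23 (25.5 against 24.6). Aqp8 was lower in 7 of 7, from 13.4 against 13.6 in GR22 to 13.6 against 22.8 in GR43. Of the epithelial genes 2 of 17 had values above 0 (7 without scaling factors), and Cldn3, a tight junction claudin, fell (-0.84).

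Crypt genes differed among themselves. The summed level of the crypt and stem cell list was 24.9 against 24.5 per 10000, of which Prom1 alone was 8.21 against 13.2, and 20 of its 26 members were at a higher pooled level in cycling nuclei. In the fit 4 of 8 tested members had values above 0 (6 without scaling factors), and 3 rose: Slc12a2, the Wnt target and sorting receptor Ephb2 (1.07) and the chloride channel Cftr (0.84). Ephb2 was higher in cycling nuclei in 6 of 7 tags, from 1.14 against 0.946 in GR12 to 2.93 against 0.797 in GR43. With no filter 3 of 26 rose and 1 fell, where 1.68% of all genes rose and 2.36% fell. The median was 0.49 beside -0.30 for all genes. With neither filter nor scaling factors 7 rose and 1 fell, where 621 of 16523 genes rose and 65 fell. The median was then 0.83 beside 0.04. Without GR43 and the filter 0 of 26 passed. Prom1 was not called with the filter (-0.74), and Lgr4 stood at 3.91 against 3.19, Kcnq1 at 2.69 against 2.15 and Rnf43 at 1.72 against 1.55, none of which passed. Inhibitors of the cell cycle and quiescence genes stood at 10.6 against 10.8 per 10000, with 0 of 8 called: Ccng2 was at 1.98 against 2.26, Btg2 at 1.39 against 1.43 and Cdkn2b at 0.919 against 1.24. Of the D cyclins and growth genes 1 of 4 passed, the kinase Cdk6 (0.87), while Ccnd1 stood at 1.48 against 1.38 and E2f3 at 1.56 against 1.43.

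Lists of the injury response stood lower in cycling nuclei. The epithelial regeneration list stood at 4.71 against 6.91 per 10000, and Plaur, the urokinase receptor, fell (-0.87). By tag its level was lower in cycling nuclei in 5 of the 7 tags and higher in the placebo tags GR24 (12.6 against 7.89) and GR23 (5.97 against 5.55). Areg, a ligand of the EGF receptor, was at 0.700 against 0.856 and did not pass. The interferon list stood at 15.8 against 25.3, a ratio of 0.624 that was 0.720 without GR43. Of its tested values 0 of 8 were above 0 (2 without scaling factors), and 0 were called by edgeR or DESeq2. With no filter 8 of 28 fell: Stat2, Irf1, Oasl, B2m, Rsad2, Herc6, Samd9 and Parp14. Without scaling factors as well 4 of 28 fell, and without GR43 and the filter 3 fell (Stat2, Oasl and Herc6). Of all genes 2.36% fell with no filter, 65 of 16523 without scaling factors as well, and 0.189% without GR43 and the filter. B2m, the light chain of MHC class I, was at 8.60 against 14.6 per 10000. By tag the interferon level was lower in cycling nuclei in 6 of the 7 tags and level in GR23 (58.6 against 57.6). The gap was widest in GR44 (17.9 against 60.5) and GR43 (11.7 against 22.5). It was smaller in GR12 (20.4 against 23.6), GR22 (16.1 against 19.3), GR24 (20.8 against 26.8) and GR41 (10.4 against 13.8). The list of p53 targets stood at 5.65 against 5.26, and Mdm2 at 1.24 against 1.17, with 0 of 5 called.

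**Figure D5:**
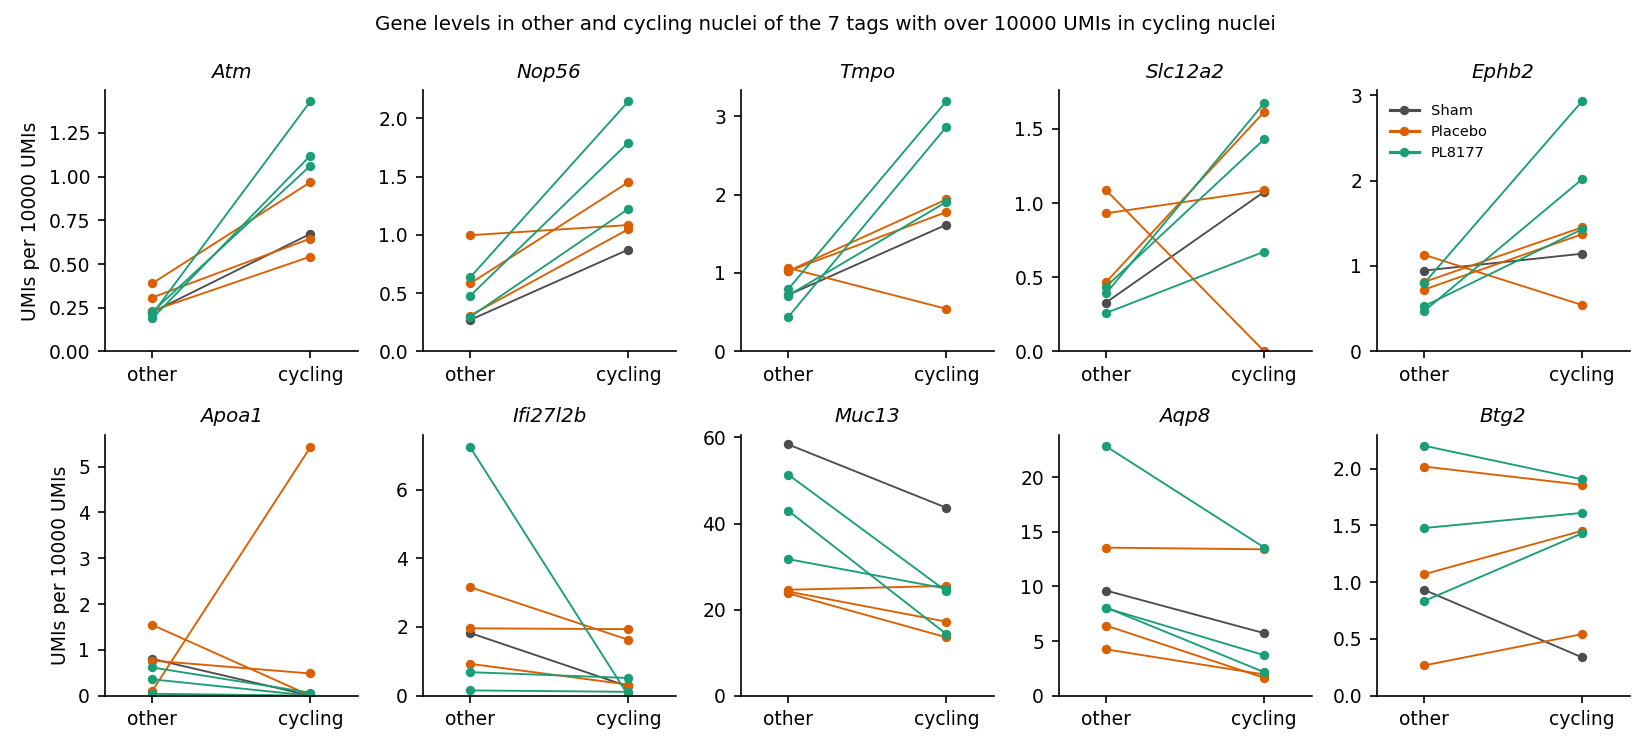
UMIs per 10000 UMIs of 10 genes in other and cycling nuclei, 1 line per library tag for the 7 tags with over 10000 UMIs in cycling nuclei, coloured by treatment. Atm and Nop56 are higher in cycling nuclei in each tag, Ifi27l2b is lower in each, Muc13 is lower in all but GR23, Aqp8 is lower in each, Apoa1 is high only in the cycling nuclei of GR23, and Btg2 goes either way.

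Between treatments few genes could be compared within cycling nuclei. The fit held 446 genes, and sham rested almost wholly on GR12, with 148628 of its 152039 UMIs. Against placebo 0 genes were called for PL8177 (0% of genes tested; edgeR, 22 at an unadjusted p under 0.05, and DESeq2 0). Each comparison with sham called 2 genes (0.448%), Malrd1 and CYTB in both, and these comparisons share the sham tags. Malrd1, a gene of the intestinal epithelium, was lower in sham than in placebo (-5.76 ± 0.99 SE, adjusted p = 0.000412, edgeR) and higher in PL8177 than in sham (5.80). The mitochondrial gene CYTB gave -5.86 and 6.86. In the cycling nuclei of GR12 Malrd1 was at 0.0673 per 10000 and CYTB at 0.875, and in its other nuclei they were at 0.0396 and 1.92, so both were low in that tag in either state. Malrd1 was between 3.87 and 13.6 in the cycling nuclei of the 3 placebo and the 3 PL8177 tags. CYTB ran from 1.63 in GR23 to 172 in GR44. Without GR12, 0 genes were called in either comparison.

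A test of the interaction asked whether the difference between cycling and other nuclei itself differed with treatment. Between sham and placebo 0 of 6128 genes passed (0%; edgeR, 293 at an unadjusted p under 0.05, and DESeq2 0), and between PL8177 and placebo 8 passed (0.131%), 4 in each direction. DESeq2 called 0 of them, and without GR43 edgeR called 0. Cftr was the crypt gene among the 8. In the cycling nuclei it stood at 1.34, 3.06 and 5.72 per 10000 in the PL8177 tags, against 0.512, 0.845 and 0.450 in their other nuclei. In the placebo tags it stood at 1.94, 1.63 and 4.84 against 2.14, 3.43 and 1.99. The interaction was 1.83 ± 0.46 (SE, adjusted p = 0.0439, edgeR), and in GR12 the levels were 0.606 and 0.580.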

How the data were processed

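The authors deposited whole UMI counts per gene and nucleus, not normalized for depth, in 3 enterocyte and 3 T cell tables. Per the labels and the study's methods, reads of 3′ libraries of nuclei were counted by Cell Ranger 6.0.1 (introns included), background was removed by CellBender, genes seen in fewer than 3 cells and nuclei with fewer than 200 genes or with 5% or more of mitochondrial reads were dropped, and cell types were named from clusters made in Seurat 4.0.3. How much background removal lowered the low counts of the rule genes is not known here.

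Members and gene lists were chosen with earlier results of these data known. UMIs were summed per library tag and state. The sums were compared by the quasi-likelihood test of edgeR (4.0.16, R 4.3.3) after TMM scaling and filterByExpr, with p-values adjusted by Benjamini-Hochberg over all genes tested and the rule genes left out of the comparison of states. A call needed an adjusted p under 0.05 and a log2 fold change past 0.5 in either direction. Levels are summed UMIs per 10000 UMIs. Intervals of 95% are exact and cover counting error only, and shares at 500 UMIs are exact hypergeometric expectations. On simulated data, edgeR called 97 of 100 tested genes that differed by a log2 value of 2 between states, and 48 of 84 between sham and placebo cycling nuclei. Each simulation changed 200 genes, and those not tested did not pass the filter. All tags were drawn from the same mean levels with 1 fixed spread. The simulation thus lacks the differences between real tags and does not give the power of the fits reported here. DESeq2 1.42.0 was the alternative test. Scrublet (scanpy 1.11.5, Python 3.11.15) called doublets, which were kept. The placebo T cell table ends in an incomplete line, which was left out, and it holds 15108 genes against 17388 over all tables. Library tags were read singly only where cycling nuclei held over 10000 UMIs.

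The genes named are the 10 rule genes, the 10 called genes per direction with the largest change among those with at least 50 UMIs over cycling nuclei (rises) or 500 over other nuclei (falls), members of each list among its 4 with the most UMIs, and genes called between treatments or in the interaction. Other genes were chosen after their values were seen. Some genes of the lists are not reported here.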

Additional observations from a re-analysis of the deposited data

Results flagged for a closer look

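In the T cell tables, which none of the comparisons use, 73 of 1018 nuclei (7.17%, exact 95% interval 5.66% to 8.93%) also held 2 or more UMIs of the 10 genes, above the 2.10% of enterocyte nuclei. Their median depth was 1975 UMIs, against 744.5 over all nuclei of those tables and 1085 over all enterocyte nuclei.

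In 8 genes the difference between cycling and other nuclei differed between PL8177 and placebo by the edgeR interaction test, as log2 values. It was higher with PL8177 for Slc4a4 (2.21), Cftr (1.83), Ptprm (3.14) and Cfp (8.94), and lower for Tspan5 (-4.55), Irs1 (-3.40), AABR07031193.1 (-2.56) and Slc30a10 (-3.24). Cfp had 0 UMIs in the cycling nuclei of the 3 placebo tags, so its fitted value is no measure of size. Tspan5 was at 7.75 per 10000 in the cycling nuclei of GR24 and at or below 0.543 in those of the other placebo tags, and Irs1 at 4.88 in GR23 and at or below 0.404 in the others. Slc4a4 was at 15.0 in GR44, which had 7 cycling nuclei, and at 4.35 in GR43. The part of these single tags in the result was not tested.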

How the results depend on the processing

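Alternatives without scaling factors, without the nucleus with the most UMIs or without nuclei of 1 rule UMI, and those joined with no filter, were chosen after seeing the data. The difference of shares kept its sign under every alternative except that sham against placebo turned to 0.222 points without GR15. Leaving out 1 tag at a time gave -1.32 to 0.222 for sham against placebo, 0.398 to 1.76 for PL8177 against placebo and 0.656 to 2.2 for PL8177 against sham. The level of the rule genes per 10000 UMIs ran from -0.347 to 0.211, from -0.143 to 0.414 and from 0.108 to 0.287 in the same order. It turned in sham against placebo without GR23 (0.211), and in PL8177 against placebo without GR22 (-0.136), GR24 (-0.143) or GR41 (-0.0176). None of these differences passed the exact permutation test under any alternative, and the smallest p was 0.1, the least that 3 tags against 3 can give.

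Against 95 genes that differed between cycling and other nuclei, DESeq2 gave 26, no filter 668, 3 or more UMIs 35, nuclei with at least 1000 UMIs 147, no TMM factors 160, no TMM factors and no filter 686 (621 higher and 65 lower, against 278 and 390 with the factors), and no filter without the nucleus with the most UMIs 592. Without 1 tag it ran from 6 (GR43) to 218 (GR23), with 51 without GR41, 58 without GR12, 61 without GR44 and 75 without GR43 and the filter. The 20 genes named for the size of their change kept their direction under every alternative, and their call in 327 of 375 fits. For sham against placebo in cycling nuclei DESeq2 gave 1, no filter 0, 3 or more UMIs 4, at least 1000 UMIs 6 and tags left out 0 to 4. For PL8177 against placebo these were no filter 4, 3 or more UMIs 2, at least 1000 UMIs 9 and tags 0 to 5. For PL8177 against sham they were at least 1000 UMIs 6 and tags 0 to 5. The interaction with sham gave 1 without TMM factors and 0 to 4 with tags left out, and that with PL8177 gave 0 by DESeq2, 2 with no filter, 45 without TMM factors, 4 at 1000 UMIs, 4 with nuclei of 1 rule UMI left out and 0 to 9 with tags left out. The cause was not tested. No paired analysis was possible because the labels give 1 sample per treatment and cell type and nothing ties the library tags of different treatments to each other. The 6 and 1 cycling nuclei of GR13 and GR15 limit every value of sham.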
